A study of Mus musculus with 2 samples.

Results

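Interferon-responding neutrophils are the cells of the mouse heart described here, 642 of the 11145 cells kept from 2 single-cell libraries, 141 in the splenectomy library and 501 in the sham library. A cell was taken as a neutrophil when the UMIs (unique molecular identifiers, each standing for 1 captured transcript) of G0s2, Il1r2, Hdc, Mmp9, Csf3r and Cxcr2 made up at least 0.3% of its total and C1qa, C1qb and C1qc together gave at most 3. It was kept as interferon-responding when Retnlg, a resistin-like gene of younger neutrophils, gave fewer than 3 UMIs and Ifit1, Ifit3, Ifit3b and Rsad2 together gave 3 or more. The 2373 neutrophils with the same Retnlg limit and a 4-gene sum below 3, called other Retnlg-low neutrophils, are set beside them, 903 in the splenectomy library and 1470 in the sham library. The cells were thus selected on the UMIs of these genes, whose values are given as a description, without a test.

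Splenectomy mice had had the spleen removed and sham mice had had sham surgery. All were wild-type C57BL/6J males aged 8 weeks whose left anterior descending coronary artery was closed for 60 minutes and then reopened for 24 hours, so both groups underwent ischaemia and reperfusion. Leukocytes were pulled from the hearts with magnetic beads against CD45, and 3′ transcript ends were counted on the 10x Chromium v3 system. Each group is 1 library, how many mice went into it is not stated in the material used, and no difference between groups could be tested. Intervals in brackets are exact 95% intervals that cover counting error only.

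Interferons are cytokines that cells release when they sense foreign or misplaced nucleic acid. Type I interferon binds the receptor chains IFNAR1 and IFNAR2, and their signal leads to the factor ISGF3, which switches on interferon-stimulated genes. Such genes block viral replication, sense RNA and DNA, tag proteins with ISG15 and raise antigen presentation on MHC class I. Neutrophils carry the receptor and are among the first leukocytes to enter an infarcted heart.

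Interferon-stimulated response elements are the DNA sequences that the interferon-activated factor ISGF3 binds, and the upstream sequences of 4 genes that carry the results are printed because each holds the core of that element. They are the 250 bases before the RefSeq start in the GRCm38.p6 table, written 5′ to 3′ on the strand of the gene. Capitals mark GAAA, any 2 bases and GAAA again, which reads TTTC, any 2 bases and TTTC where it lies on the other strand. Ifit3 (chr19:34583279-34583528, plus strand), a gene of the rule, holds it at -156 and -122 from the start on the other strand. Isg15 (chr4:156200819-156201068, minus strand) holds 3 overlapping copies at -78, -72 and -66. Ddx60 (chr8:61927837-61928086, plus strand) holds it at -53 and -19, and Cxcl10 (chr5:92348890-92349139, minus strand) at -213.
Ifit3: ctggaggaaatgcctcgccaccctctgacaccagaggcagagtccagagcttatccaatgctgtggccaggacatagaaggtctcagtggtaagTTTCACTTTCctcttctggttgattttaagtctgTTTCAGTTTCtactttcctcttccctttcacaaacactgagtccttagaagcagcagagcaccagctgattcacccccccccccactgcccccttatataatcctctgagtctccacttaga
Isg15: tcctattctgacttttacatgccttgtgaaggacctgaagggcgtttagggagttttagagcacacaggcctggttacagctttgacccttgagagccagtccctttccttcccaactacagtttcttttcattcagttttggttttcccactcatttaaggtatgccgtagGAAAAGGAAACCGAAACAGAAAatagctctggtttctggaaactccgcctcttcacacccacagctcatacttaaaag
Ddx60: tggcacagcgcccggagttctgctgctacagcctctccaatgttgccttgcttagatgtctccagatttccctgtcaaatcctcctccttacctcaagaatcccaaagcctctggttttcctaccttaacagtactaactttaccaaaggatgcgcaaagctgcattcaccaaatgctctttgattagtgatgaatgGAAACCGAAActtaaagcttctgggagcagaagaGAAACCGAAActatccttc
Cxcl10: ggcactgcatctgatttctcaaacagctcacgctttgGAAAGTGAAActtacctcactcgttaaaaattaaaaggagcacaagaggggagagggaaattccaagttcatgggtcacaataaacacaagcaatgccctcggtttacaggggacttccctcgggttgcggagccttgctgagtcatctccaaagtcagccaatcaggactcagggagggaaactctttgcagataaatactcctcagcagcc

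These letters occurred in 1079 of the 27025 genes of the promoter table (3.99%), in a window from 250 bases before to 50 after the start, read on both strands. They occurred in 172 of 3542 matched genes measured in the comparison of interferon-responding with other Retnlg-low neutrophils (4.86%). Of the 128 genes at least 1.5-fold higher in interferon-responding neutrophils of both libraries, 105 matched the table and 36 of these held the letters (34.3%). The share was 23 of 49 (46.9%) for genes on the interferon lists and 13 of 56 (23.2%) for the rest. The 4 genes of the rule all held them. The core of the gamma-activated site, TTCNNNGAA, was in 19 of the 105 (18.1%), in 293 of the 3542 measured genes (8.27%) and in 9.55% of all genes of the table. Interferon-list genes that were measured but not called higher held the response element core in 4 of 19 (21.1%). They held the gamma-activated site core in 5 of 19 (26.3%), beside 11 of 49 (22.4%) for the called ones on the lists. Ifit2, Cmpk2, Herc6, Ifi47, Oasl1 and Isg20, described below among the genes with the highest ratios, had no match of the interferon-stimulated response element core in the window, which says only that its letters are not there.

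The cells carried the transcripts of neutrophils that the rule did not use. The 10 such markers, among them the alarmin subunit S100a8, the interleukin-1 beta gene Il1b, the chemoattractant Cxcl2 and the receptor Trem1, gave a median of 650 UMIs per cell in splenectomy and 580 UMIs in sham interferon-responding neutrophils, with lowest cells of 46 and 33. At 2000 UMIs each, S100a8 was found in 100% of splenectomy and 99.6% of sham interferon-responding neutrophils, against a background of 26.1% and 26.5% in B cells of the same libraries. Without thinning the shares were 100% and 99.6%, against 50% and 51.3% in B cells. Ly6g, the gene of the surface protein by which mouse neutrophils are usually sorted, was found in 3.55% of splenectomy and 3.39% of sham cells, or 2.92% and 2.33% at 2000 UMIs each, and in 0 of 115 splenectomy B cells at that depth, which allows a share of up to 2.61%. No barcode of an interferon-responding neutrophil was shared by both libraries.

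Markers of other cell types were low in most cells and high in a few. The 14 macrophage markers summed to 2632 CPM (counts scaled to 1e6 UMIs of the group) in splenectomy and 2658 CPM in sham interferon-responding neutrophils, against 2094 and 1924 CPM in other Retnlg-low neutrophils of the same libraries. Per cell their median was 3 UMIs in splenectomy and 2 UMIs in sham interferon-responding neutrophils, and the highest cells held 449 and 1460. The 12 monocyte markers summed to 2257 CPM in splenectomy and 1971 CPM in sham interferon-responding neutrophils, against 1630 and 1317 CPM in the others. The 10 dendritic cell markers summed to 1120 CPM in splenectomy and 621 CPM in sham interferon-responding neutrophils, against 628 and 945 CPM in the others, with a highest cell of 498 UMIs in splenectomy and 209 UMIs in sham interferon-responding neutrophils. B cell markers, T and NK cell markers, stromal and muscle markers, eosinophil and mast cell markers and platelet and red cell markers had a median of 0 UMIs in all groups. Of 12 T and NK cell markers 7 were at 0 in splenectomy and 4 in sham interferon-responding neutrophils, with Cd3e, Cd3g, Cd4 and Ncr1 at 0 in both. Of 7 B cell markers 4 were at 0 in splenectomy and 0 in sham interferon-responding neutrophils, where they summed to 121 CPM with a highest cell of 85 UMIs. Monocyte and macrophage marker levels thus moved with the cell groups compared below, and their part in the results was not tested. Cells with over 1% of their UMIs from markers of another cell type numbered 7 of 141 splenectomy and 17 of 501 sham interferon-responding neutrophils, and the main counts are also given without them.

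The splenectomy library held a smaller share of interferon-responding cells among its neutrophils than the sham library. They made up 13.5% of the 1044 Retnlg-low neutrophils of the splenectomy library (11.5 to 15.7) and 25.4% of the 1971 of the sham library (23.5 to 27.4). The difference was -11.9 percentage points (-14.7 to -9.02 by Newcombe's method). That interval is not exact, treats cells as independent and does not cover the spread between animals. Of all neutrophils, interferon-responding cells were 8.69% in the splenectomy library and 21.2% in the sham library, and of all kept cells 2.82% and 8.16%. Cells of the splenectomy library were the deeper ones, with a median of 3577.5 UMIs per Retnlg-low neutrophil against 3276 in the sham library. With each cell thinned to 2000 UMIs and shallower cells left out, 81 of 950 splenectomy cells (8.53%, 6.83 to 10.5) and 316 of 1745 sham cells (18.1%, 16.3 to 19.998) reached a 4-gene sum of 3. The neutrophils left aside by the Retnlg limit showed the same order. A sum of 3 or more was found in 83 of 578 splenectomy neutrophils with 3 or more Retnlg UMIs (14.4%, 11.6 to 17.5) and in 110 of 394 sham ones (27.9%, 23.5 to 32.6). The share with a sum of 3 or more was thus lower in splenectomy cells on both sides of the Retnlg limit. Retnlg-low cells themselves were 64.4% of neutrophils in the splenectomy library and 83.3% in the sham library. Without cells over 1% of other cell types' markers the difference among Retnlg-low neutrophils was -12.06 points.

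**Figure D1:**
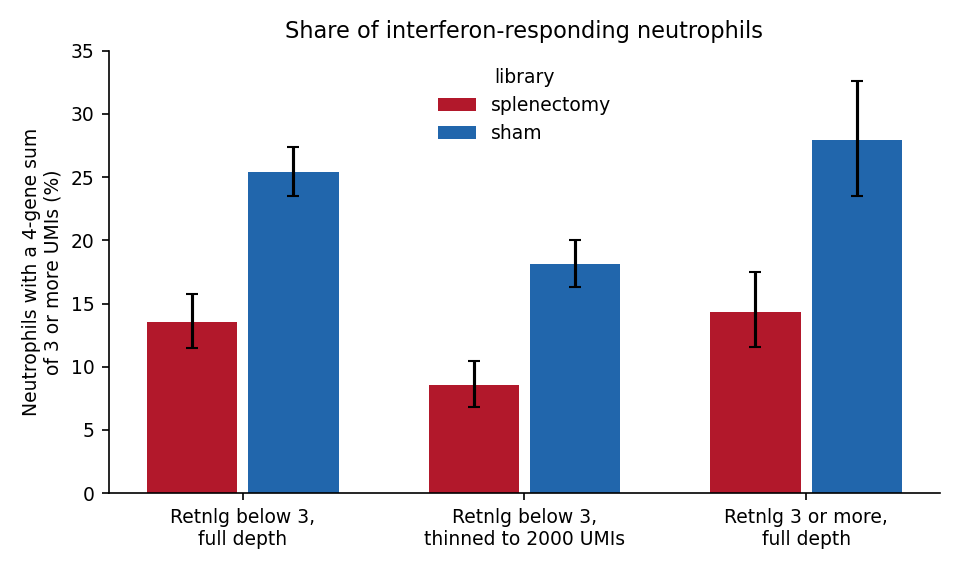
Share (%) of neutrophils with a 4-gene sum of 3 or more UMIs in the splenectomy (red) and sham (blue) libraries, with bars for exact 95% intervals of counting error, for cells with Retnlg below 3 at full depth, the same thinned to 2000 UMIs, and cells with Retnlg of 3 or more. The splenectomy bar is lower in each pair, 13.5% against 25.4%, 8.53% against 18.1% and 14.4% against 27.9%.

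Within the cells so chosen, the 4 genes of the rule had similar values in both libraries. Their sum had a median of 7 UMIs per cell in splenectomy and in sham cells, a 90th percentile of 30 and 28, and a highest value of 137 and 208. Ifit1, whose product binds foreign RNA caps, was found in 72.3% of splenectomy and 71.7% of sham cells. Ifit3 was found in 80.1% and 84.0%, and its near-identical neighbour Ifit3b in 56.7% and 57.1% of splenectomy and sham cells. The counts of both are uncertain because the genes are so alike. Rsad2, which encodes the antiviral enzyme viperin, was found in 75.9% of splenectomy and 77.6% of sham cells. All 4 were present in 31.9% of splenectomy and 32.7% of sham cells, and a single one carried the whole sum in 7.80% and 8.78%. A sum of 10 or more was reached by 34.0% (26.3 to 42.5) of splenectomy and 40.9% (36.6 to 45.4) of sham cells, whose intervals overlap.

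Genes that answer to interferon but were not in the rule were higher in interferon-responding neutrophils than in other Retnlg-low neutrophils of the same library. A gene was measured when at least 10 UMIs would be expected in each group if both had the same CPM, which 4394 genes met. Of these, 128 genes (2.91%) were at least 1.5-fold higher in interferon-responding neutrophils in both libraries, and 18 (0.41%) were at least 1.5-fold lower. Of 131 interferon-stimulated genes in 10 lists, 80 were measured, 60 of them were at least 1.5-fold higher in both libraries and 0 lower. These 60 were 46.9% of the 128 genes and 75% of the measured list. The median log2 ratio of the measured interferon genes was 1.86 in the splenectomy library and 1.47 in the sham library, against -0.02 and -0.04 over all measured genes. A gene could be measured through the cells in which it was high, and the cells were cut on transcripts of the same response, so these counts describe the cells and test nothing. Without the cells that held over 1% of other cell types' markers, 53 interferon genes were higher, and 106 genes in all. With cells thinned to 2000 UMIs before the rule was applied, which leaves fewer UMIs and so fewer measured genes, the counts were 27 and 57. The limits on Retnlg and on C1qa, C1qb and C1qc then act on thinned counts, so cells above them at full depth can enter. Retnlg-low neutrophils so numbered 1105 in the splenectomy and 1894 in the sham library. Of those Retnlg-low at full depth, 950 and 1745 reached 2000 UMIs. At a minimum of 20 expected UMIs, 83 genes were higher.

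Ifit2 had the highest ratio, and 2 of 3 measured genes of the ISGylation list were higher. Ifit2, a sister gene of the rule's Ifit1 and Ifit3, had 200 CPM in splenectomy and 218 CPM in sham interferon-responding neutrophils, against 1.14 and 4.41 CPM in other Retnlg-low neutrophils of the same libraries, log2 ratios of 7.46 (6.07 to 9.36) and 5.63 (5.03 to 6.30). It lies near Ifit3 in mm10, at chr19:34550694-34576419 against chr19:34583531-34588731. Cmpk2, a mitochondrial nucleotide kinase, had 87.7 CPM in splenectomy and 96.9 CPM in sham interferon-responding neutrophils, against 2.27 and 6.52 CPM in the others. It lies near Rsad2, at chr12:26469204-26479837 against chr12:26442746-26456452, so the genes ranked first and next by the smaller of both libraries' ratios lie near genes of the rule. Isg15, the ubiquitin-like protein itself, had 1935 CPM in splenectomy and 1970 CPM in sham interferon-responding neutrophils, against 249 and 430 CPM in the others, log2 ratios of 2.96 (2.83 to 3.09) and 2.20 (2.12 to 2.27). Herc6, the ligase that attaches ISG15 in mice, had 93.8 CPM in splenectomy and 101 CPM in sham interferon-responding neutrophils, against 1.99 and 6.90 CPM in the others. Trim25, also on the ISGylation list, was the 1 of its 3 measured genes below 1.5-fold in both libraries, with log2 ratios of 0.35 and 0.25.

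Oligoadenylate synthetases, which on double-stranded RNA make the messenger that activates RNase L, were higher in 5 of 5 measured genes. Oasl1, a synthetase-like gene, had 212 CPM in splenectomy and 241 CPM in sham interferon-responding neutrophils, against 18.2 and 36.6 CPM in the others. Oas3 had 185 CPM in splenectomy and 197 CPM in sham interferon-responding neutrophils, against 27.8 and 52.9 CPM in the others. Of 8 measured nucleic acid sensors and their partners, 7 were higher. Zbp1, a sensor of Z-form nucleic acid, had 274 CPM in splenectomy and 284 CPM in sham interferon-responding neutrophils, against 37.5 and 63.3 CPM in the others. Ddx60, a helicase linked to RIG-I signalling, had 132 and 127 CPM, against 10.8 and 24.9 CPM in the other splenectomy and sham cells. Ddx58 (RIG-I), Ifih1 (MDA5), Eif2ak2 (PKR), Adar and Cgas were also higher, with log2 ratios between 0.84 and 2.64. Aim2, a DNA inflammasome sensor, had 0.11 in both libraries.

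The GTPases of cell-autonomous defence, which attack vacuoles holding pathogens, were higher in 5 of 5 measured genes. Gbp2, a guanylate-binding protein, had 128 CPM in splenectomy and 165 CPM in sham interferon-responding neutrophils, against 5.68 and 14.96 CPM in the others, log2 ratios of 4.49 (3.77 to 5.27) and 3.46 (3.11 to 3.83). Ifi47 and Irgm1, immunity-related GTPases, had 103 and 83.1 CPM in splenectomy interferon-responding neutrophils, against 4.83 and 14.8 CPM in the other splenectomy cells. Their sham values were 110 and 113 CPM in interferon-responding neutrophils, against 11.3 and 22.6 CPM in the others. All 4 measured genes of the PYHIN family, whose members bind DNA, were higher, among them Ifi211 with log2 ratios of 2.65 in the splenectomy and 2.39 in the sham library. In the Schlafen family 3 of 5 were higher. Slfn5 had 700 CPM in splenectomy and 830 CPM in sham interferon-responding neutrophils, against 84.1 and 182 CPM in the others, whereas Slfn1 and Slfn2 had log2 ratios between 0.15 and 0.57.

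**Figure D2:**
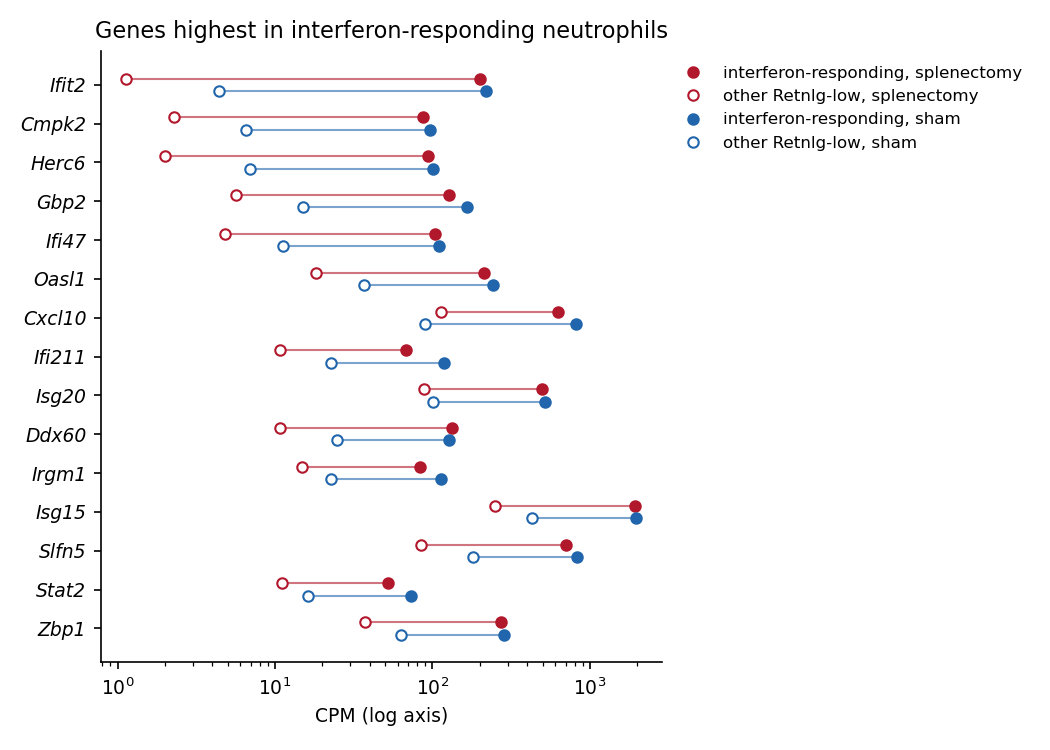
CPM on a log axis of the 15 genes with the highest ratio, in interferon-responding neutrophils (filled) and other Retnlg-low neutrophils (open) of the splenectomy (red) and sham (blue) libraries. Filled points of both libraries lie close together for Isg15, at 1935 and 1970 CPM, and farther apart for Ifi211, at 67.7 and 119 CPM, while open points of the splenectomy library lie left of the sham ones for all genes but Cxcl10.

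Of the signalling and transcription list 5 of 10 measured genes were higher, with medians of 0.70 in the splenectomy and 0.66 in the sham library. Stat2 had 52.3 CPM in splenectomy and 73.5 CPM in sham interferon-responding neutrophils, against 11.1 and 16.1 CPM in the others. Irf7, the factor that amplifies type I interferon production, had 558 and 671 CPM, against 85.2 and 194 CPM in the other splenectomy and sham cells. Irf9 and the inhibitor Socs1 were also among the 5. Socs3, an inhibitor of other cytokine receptors, had log2 ratios of -0.41 and -0.19 in the splenectomy and sham libraries. Of 7 measured receptor chains and Janus kinases 0 were higher or lower by 1.5-fold. Ifnar1 had 70.8 CPM in splenectomy and 49.1 CPM in sham interferon-responding neutrophils, against 77.3 and 67.7 CPM in the others, and Ifnar2 had 180 and 177 CPM, against 147 and 189 CPM. None of 14 interferon genes was detectable at this depth in interferon-responding neutrophils, with 0 UMIs in both libraries. In all kept cells, Ifnb1 gave 43 UMIs in 20 splenectomy cells and 88 in 29 sham cells, and Ifng, the type II interferon, 34 UMIs in 21 splenectomy cells and 85 in 31 sham cells.

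Among 39 measured genes of the list of further interferon effectors 28 were higher in both libraries. Isg20, an exonuclease of viral RNA, had 498 CPM in splenectomy and 522 CPM in sham interferon-responding neutrophils, against 87.8 and 101 CPM in the others. Ifitm3, which stops enveloped viruses from fusing, had 2595 and 2887 CPM, against 765 and 1211 CPM in the other splenectomy and sham cells. Its family was mixed. Ifitm2 had log2 ratios of -0.05 and -0.16, and Ifitm1 of -0.50 and -0.16, whereas Ifitm6, on the granule list, was at least 1.5-fold higher in both libraries. Rtp4, Parp14, Xaf1 and Rnf213 had ratios between 1.78 and 2.91. On the MHC class I list 7 of 16 were higher, with medians of 0.70 in the splenectomy and 0.54 in the sham library. These 7 were the transporter Tap1, tapasin (Tapbp), the immunoproteasome subunits Psmb8 and Psmb9, the proteasome activator Psme2 and the nonclassical H2-T22 and H2-T23. The classical heavy chains H2-K1 and H2-D1 had ratios between 0.15 and 0.49.

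Cxcl10, a chemokine that draws CXCR3-bearing T and NK cells, had 628 CPM in splenectomy and 815 CPM in sham interferon-responding neutrophils, against 114 and 89.2 CPM in the others, log2 ratios of 2.47 (2.26 to 2.67) and 3.19 (3.04 to 3.34). It came from a minority of the cells, as 25.5% of splenectomy and 25.3% of sham interferon-responding neutrophils had a UMI, and 1 cell held 17.4% and 10.8% of the group's Cxcl10 UMIs. Thinned to 2000 UMIs, 21.2% of splenectomy and 21.8% of sham interferon-responding neutrophils had Cxcl10, against 7.87% and 7.78% of the others. In B cells of the same libraries, given as a background although B cells can answer to interferon themselves, the share was 1.74% in 115 splenectomy and 1.77% in 113 sham cells, whose median depths before thinning were 3831.5 and 3669 UMIs. Isg15 was found in 80.3% (72.6 to 86.6) of thinned splenectomy and 86.3% (82.8 to 89.2) of thinned sham interferon-responding neutrophils, against 26.8% and 40.6% of the others and 6.09% and 6.19% of B cells. Unthinned, the shares were 87.2% and 92.0%, against 37.9% and 48.8% of the others, at median depths of 3862, 3525, 3516 and 3193.5 UMIs in the same order.

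Few genes of other neutrophil programmes differed by 1.5-fold between both cell groups, as was so over all 4394 measured genes, of which 2.91% were higher and 0.41% lower. Counts of 0 or 1 in the short lists below are thus not particular to these programmes. Abundant granule transcripts were somewhat lower in interferon-responding neutrophils. Of 18 measured genes of an activated state with Csf1 and Il23a 0 were higher or lower in both libraries. Csf1, the macrophage growth factor, had 694 CPM in splenectomy and 530 CPM in sham interferon-responding neutrophils, against 610 and 485 CPM in the others. Il23a, a subunit of interleukin-23, had 165 and 246 CPM, against 279 and 288 CPM in the other splenectomy and sham cells. Of 34 inflammatory genes 1 was lower and 1 higher in both libraries. The higher gene was Ccl2, a chemokine for monocytes, at 508 and 453 CPM against 227 and 287 CPM. Il1b had 22022 CPM in splenectomy and 21672 CPM in sham interferon-responding neutrophils, against 20331 and 21516.5 CPM in the others. Of 22 granule and marrow-stage genes 2 were higher, Cybb, the catalytic subunit of the phagocyte oxidase, and Ifitm6, and the list's medians were 0.03 and -0.10. Summed over its genes, however, the list had 91607 CPM in splenectomy and 77663 CPM in sham interferon-responding neutrophils, against 106239 and 90308 CPM in the others. Its summed log2 ratios were -0.21 and -0.22. The 10 neutrophil markers outside the rule summed to 164734 CPM in splenectomy and 154218 CPM in sham interferon-responding neutrophils, against 180611 and 167826 CPM in the others. Of 22 survival and death genes 1 was higher, Casp8, which starts extrinsic apoptosis, and of 15 oxidase and antioxidant genes 1 was higher, again Cybb. None of 24 migration genes, 28 glycolysis and hypoxia genes, 19 stress genes, 79 ribosomal protein genes or 12 mitochondrial transcripts was 1.5-fold higher or lower in both libraries. Slco3a1, an organic anion transporter, was the 1 gene found in enough cells to be named as lower, at 55.4 CPM in splenectomy and 50.9 CPM in sham interferon-responding neutrophils, against 88.1 and 80.4 CPM in the others. Its log2 ratios of -0.67 in the splenectomy and -0.66 in the sham library fell short of 1.5-fold under several alternatives, among them -0.37 in the splenectomy library by mean per-cell CPM and -0.36 in the sham library with cells thinned before the rule was applied.

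Among the 68 higher genes on none of the interferon lists were Samd9l, Trafd1, Ogfr, Trim26, Tdrd7, Casp8, Apobec3 and Nampt, and also genes that mark monocytes and macrophages. Pf4, a chemokine of platelets and some macrophages, had 225 CPM in splenectomy and 454 CPM in sham interferon-responding neutrophils, against 69.9 and 68.8 CPM in the others. The 14 macrophage markers, Pf4 among them, had a median of 3 UMIs per splenectomy and 2 UMIs per sham interferon-responding neutrophil, with highest cells of 449 and 1460. Pf4 may thus rest on few cells, and its share in single cells is not given here. Ly6c2, a surface antigen of monocytes, had 286 and 393 CPM, against 107 and 159 CPM in the other splenectomy and sham cells. These genes were chosen for naming after their values were seen.

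Interferon transcripts were graded along the 4-gene sum on both sides of the limit of 3. Over cells with a 4-gene sum of 0, 1, 2, 3 to 4, 5 to 9 and 10 or more, the interferon lists held 16563.5, 19612, 20657, 24135, 31612 and 42096 CPM in the splenectomy library. In the sham library the same bins held 18187, 22436, 26396, 27484, 32956 and 45306 CPM. Isg15 went with it, at 197, 435, 587, 881, 1932 and 2945 CPM in the splenectomy library and 323, 567, 799, 999, 1494.5 and 2844.5 CPM in the sham library. Just outside the limit, cells with a sum of 2 had 587 CPM of Isg15 in 43 splenectomy and 799 CPM in 138 sham cells, and just inside, cells with exactly 3 had 999 CPM in 27 splenectomy and 865 CPM in 82 sham cells. Ifit2 and Cxcl10 were concentrated at the top. Cxcl10 had 147, 405 and 1266.5 CPM in the 3 upper bins of the splenectomy library and 264, 353 and 1433 CPM in those of the sham library. Ifit2 had 8.90, 57.9 and 497 CPM in the splenectomy and 20.3, 58.8 and 436 CPM in the sham library. Per cell, the interferon lists had a median of 31181 CPM of the cell's own UMIs in splenectomy and 35812 in sham interferon-responding neutrophils, against 16000 and 18469.7 in the others, and their spreads overlapped. The 10th percentile of interferon-responding neutrophils was 19332 in splenectomy and 20625 in sham cells, below the 90th percentile of the others, 26436 and 30649.

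**Figure D3:**
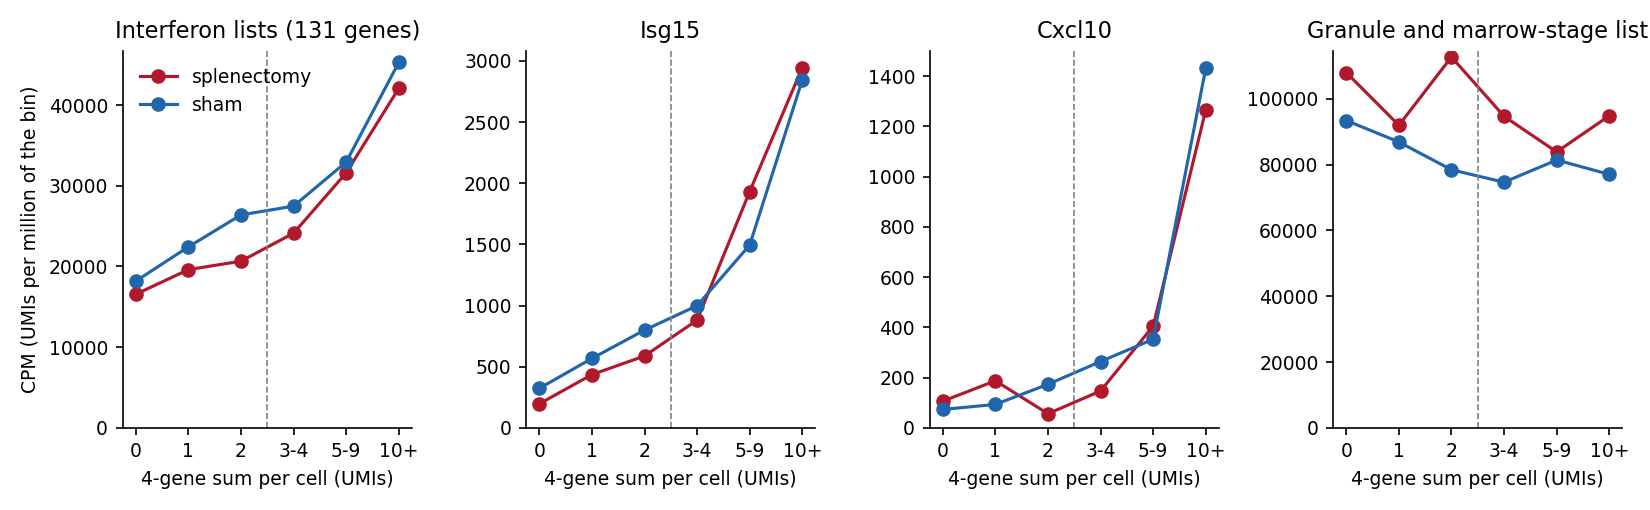
CPM of the summed interferon lists, Isg15, Cxcl10 and the granule list in bins of the 4-gene sum per Retnlg-low neutrophil, for the splenectomy (red) and sham (blue) libraries, with the limit of the rule as a dashed line. The interferon lists and Isg15 are higher in each bin to the right, Isg15 reaching 2945 and 2844.5 CPM, Cxcl10 is highest in the last bin, and the granule list stays between 74677 and 112739 CPM.

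**Figure D4:**
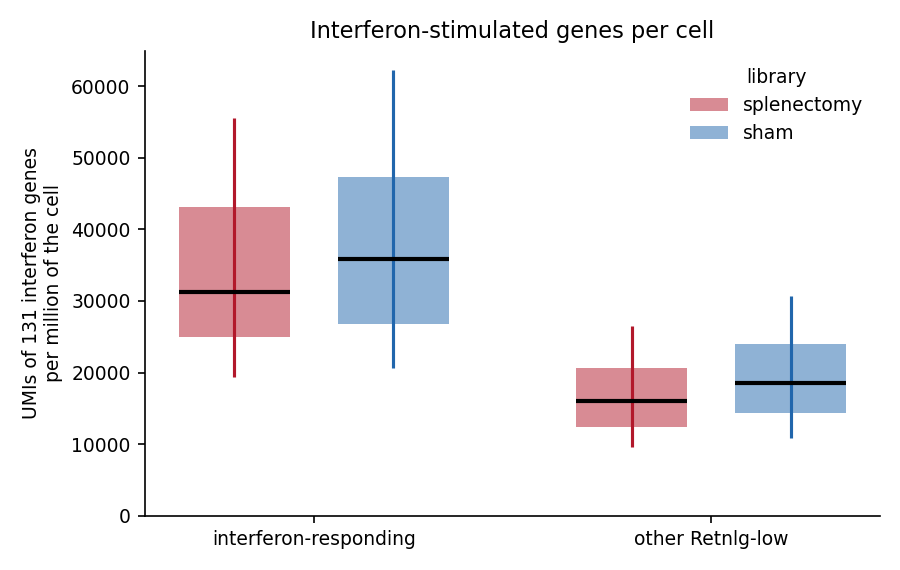
CPM of the 131 interferon-stimulated genes within each cell, as boxes from the 25th to the 75th percentile with the median as a line and whiskers from the 10th to the 90th percentile, for splenectomy (red) and sham (blue) cells. Medians are 31181 and 35812 in interferon-responding neutrophils, against 16000 and 18469.7 in other Retnlg-low neutrophils, and the whiskers of both cell groups overlap.

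Between the libraries, the median interferon gene lay nearer to an equal level in interferon-responding neutrophils than in the other Retnlg-low neutrophils, while the summed interferon lists differed by similar amounts in both. Among 4465 genes measured in interferon-responding neutrophils, 271 (6.07%) were higher in splenectomy than in sham cells by 1.5-fold or more, and 426 (9.54%) lower. Of 104 interferon genes measured there 1 was higher, the DNA sensor Cgas, and 18 lower, with a median log2 ratio of -0.14 beside -0.03 over all genes. In other Retnlg-low neutrophils 391 (4.91%) of 7965 genes were higher and 756 (9.49%) lower in splenectomy cells, and of 104 interferon genes 2 were higher and 55 lower, with a median of -0.61 beside -0.05 over all genes. Summed over the 131 genes, the log2 ratio was -0.18 (-0.20 to -0.15) in interferon-responding neutrophils and -0.22 (-0.24 to -0.21) in the others. The rule sets the same minimum of the 4-gene sum in both libraries for the one cell group and the same maximum for the other, and the difference between both medians was not tested. Without cells over 1% of other cell types' markers, 246 genes were higher and 466 lower in splenectomy interferon-responding neutrophils, 14 of the lower ones interferon genes. The 18 lower genes numbered 11 with doublets removed, 11 at a neutrophil marker share of at least 0.6% and 7 with cells thinned before the rule was applied. The counts over all genes lay between 126 and 511 higher and between 186 and 796 lower with the minimum of expected UMIs at 20 and at 5.

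Single genes differed in this. Isg15 stood at 1935 CPM in splenectomy and 1970 CPM in sham interferon-responding neutrophils, a log2 ratio of -0.03 (-0.12 to 0.07), against -0.79 (-0.90 to -0.68) in the others. Ifit2 had -0.13 (-0.42 to 0.16), against -1.96 (-3.95 to -0.41) in the others, where it rested on 4 splenectomy and 23 sham UMIs. Irf7 had -0.26 (-0.43 to -0.10), against -1.19 (-1.38 to -1.003). Ifi204, a PYHIN gene, stood at 654 CPM in splenectomy and 651 CPM in sham interferon-responding neutrophils, a ratio of 0.01 (-0.15 to 0.16), against -0.60 (-0.79 to -0.41) in the others. Plac8 and Cxcl10 ran otherwise, Plac8 with -1.55 against -0.86 in the others and Cxcl10 with -0.38 (-0.54 to -0.22) against 0.35 (0.15 to 0.55). Medians of 4 lists lay nearer 0 in interferon-responding neutrophils. Their counts of lower genes stand beside 9.54% lower over all measured genes in interferon-responding neutrophils and 9.49% in the others. The oligoadenylate synthetases had a median of -0.14 in interferon-responding neutrophils with 1 of 6 lower, against -0.72 with 4 of 6 lower in the others. Sensors had -0.13 with 0 of 9 lower, against -0.44 with 5 of 11, Schlafen genes -0.14 with 1 of 6, against -0.78 with 3 of 5, and the GTPases -0.18 with 1 of 9, against -0.75 with 5 of 7. Summed over their genes, Schlafen ratios were -0.02 against 0.03 and those of the signalling list -0.14 against -0.13.

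The PYHIN family had the lowest median in splenectomy interferon-responding neutrophils among interferon lists with at least 3 measured genes, -0.71 with 6 of 10 measured genes at least 1.5-fold lower, against -1.03 with 8 of 10 in the others. Over all measured genes 9.54% were lower in interferon-responding neutrophils and 9.49% in the others. The PYHIN count was 3 of 9 with doublets removed and 4 of 9 at a neutrophil marker share of at least 0.6%. Summed over its genes the ratio was -0.29 (-0.40 to -0.18), beside -0.27 for the GTPases and -0.25 for the effectors, against -0.76 for PYHIN genes in the others. Ifi209 stood at 67.7 CPM in splenectomy and 141 CPM in sham cells, a log2 ratio of -1.05 (-1.54 to -0.60), against -0.98 in the others. Ifi211 stood at 67.7 and 119 CPM, -0.81 (-1.30 to -0.34), and 1 splenectomy cell held 22.7% of its UMIs. Ifi27l2a, an interferon-induced gene, stood at 2848 CPM in splenectomy and 4693 CPM in sham cells, -0.72 (-0.79 to -0.65). Plac8, a cysteine-rich protein also made by monocytes, stood at 286 CPM in splenectomy and 839 CPM in sham cells, -1.55 (-1.78 to -1.33). Of the 18 interferon genes that were lower, 6 passed 1.5-fold under each of 4 stricter choices of cells, namely doublets removed, a neutrophil marker share of at least 0.6%, no cell over 1% of other cell types' markers, and no cell over 10000 UMIs. They were Plac8, Ifi209, Gbp9, Ifi213, Ifi27l2a and Ifi206, of which 3 are PYHIN genes. Ms4a4c, a membrane protein that is also on the monocyte marker list, had -1.95 over all cells, -0.39 with doublets removed and 0.09 at the higher neutrophil marker share. The PYHIN median lay between -0.66 and -0.49 under these choices.

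**Figure D5:**
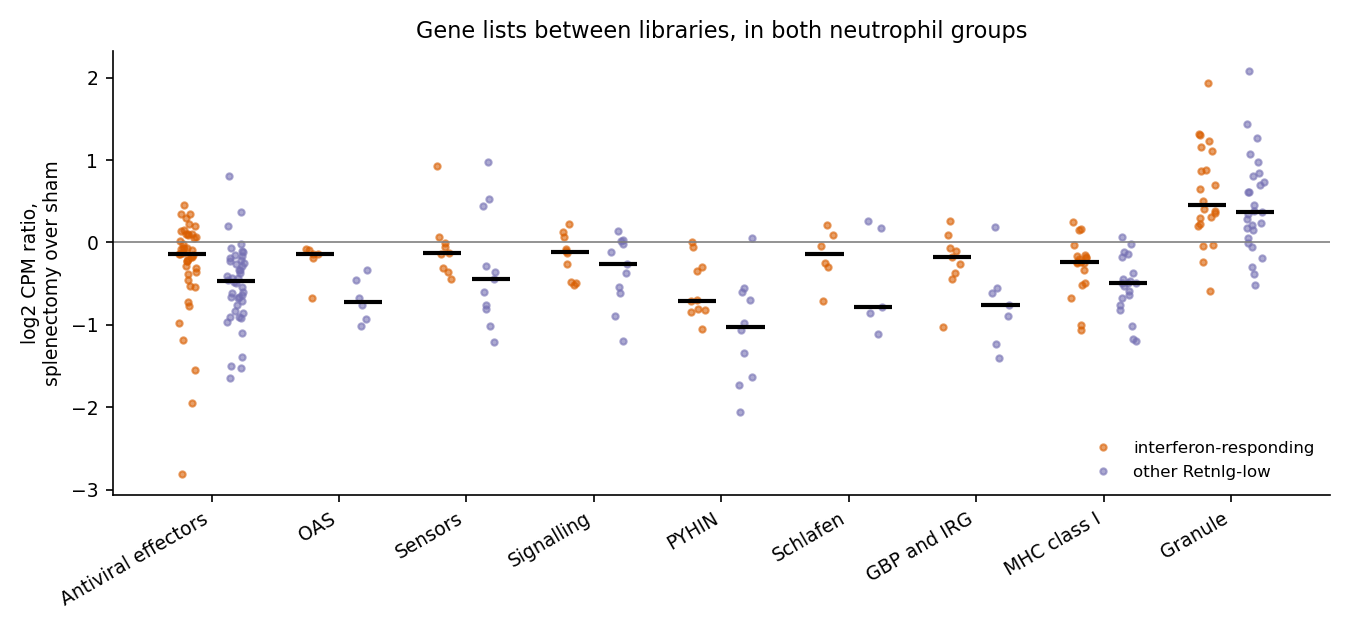
Log2 CPM ratio, splenectomy over sham, of each measured gene of 9 lists in interferon-responding neutrophils (orange) and other Retnlg-low neutrophils (purple), with black bars for medians. The orange bars of the interferon lists lie nearer 0 than the purple ones, -0.14 against -0.72 for OAS, with PYHIN lowest at -0.71 and -1.03, and the granule bars lie above 0 at 0.46 and 0.37.

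Granule and marrow-stage genes were higher in splenectomy interferon-responding neutrophils in 10 of 22 measured genes and lower in 1, with a median of 0.46, against 11 higher and 0 lower of 27 with a median of 0.37 in the others. Over all measured genes 6.07% were higher and 9.54% lower in splenectomy interferon-responding neutrophils, and 4.91% and 9.49% in the others. Cd177, a surface protein on a share of neutrophils, stood at 117 CPM in splenectomy and 30.7 CPM in sham cells, a log2 ratio of 1.93 (1.44 to 2.43). It was found in 30.5% of splenectomy and 8.78% of sham cells, at 2000 UMIs each in 23.4% (16.6 to 31.3) and 4.86% (3.11 to 7.21), and in 0 of 115 splenectomy B cells at that depth, which allows a share of up to 2.61%. Chil3, a chitinase-like protein, stood at 837 CPM in splenectomy and 388 CPM in sham cells, while Lcn2, a granule protein that withholds iron from bacteria, stood at 917 CPM in splenectomy and 584 CPM in sham cells. Stfa2l1 and Cstdc4, stefin-like protease inhibitors, had ratios of 1.30 (1.12 to 1.49) and 1.51 (1.38 to 1.63), against 0.62 and 0.71 in the others. Under the alternative settings the Cstdc4 ratio lay between 1.14 and 1.75, beyond its counting interval. Padi4, which citrullinates histones in neutrophil traps, was the 1 lower gene, at -0.59 (-1.89 to 0.52) on 8 splenectomy and 41 sham UMIs.

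Of the 196 genes found in at least 10% of splenectomy interferon-responding neutrophils and at least 1.5-fold higher there, the 10 with the highest ratio were Ffar2, Cd177, Tarm1, Ceacam10, Enah, Lipg, Cstdc4, Mmp19, Hccs and Faap100. Ffar2, which senses short-chain fatty acids, stood at 83.1 CPM in splenectomy and 19.8 CPM in sham cells, a log2 ratio of 2.07 (1.47 to 2.67), against 2.17 in the others. Tarm1, a receptor that activates neutrophils, had 1.92 (1.41 to 2.44), against 0.98 in the others. Lipg, endothelial lipase, was also higher in interferon-responding than in other cells of both libraries, at 58.5 CPM in splenectomy and 20.3 CPM in sham interferon-responding neutrophils, against 17.1 and 4.22 CPM. Mmp19 rests on few cells, 1 of which held 41.5% of its splenectomy UMIs, and with Retnlg held at 0 its ratio was -0.32. Hccs and Faap100 rest on 21 and 20 splenectomy UMIs.

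Of the 200 genes found in at least 10% of sham interferon-responding neutrophils and at least 1.5-fold lower in splenectomy ones, the 10 lowest were Itga4, Tmem86a, Selenop, Plac8, Lgmn, Gtf2f1, Nck1, Prpf4b, Snai1 and Mvb12a, and all but Plac8 and Lgmn rest on at most 14 splenectomy UMIs. Itga4, the alpha chain of the integrin VLA-4, stood at 13.8 CPM in splenectomy and 45.5 CPM in sham cells, a log2 ratio of -1.72 (-2.89 to -0.74). Selenop, a selenium carrier, and Lgmn, a lysosomal protease, are abundant in macrophages. Selenop had -1.59 and Lgmn -1.55 over all cells, but -0.43 and -0.00182 with cells thinned before the rule was applied. Such thinning changes the set of cells as well as the depth, as it can admit cells above the Retnlg or C1q limits at full depth. Lgmn had -0.17 at a neutrophil marker share of at least 0.6%. Hmox1, the haem-degrading enzyme, stood at 163 CPM in splenectomy and 347 CPM in sham interferon-responding neutrophils, -1.09 (-1.40 to -0.80), against -0.23 in the others. Cd274, the gene of PD-L1, stood at 79.996 CPM in splenectomy and 128 CPM in sham interferon-responding neutrophils, -0.68 (-1.13 to -0.25), against 0.31 in the others. Thinned to 2000 UMIs, however, Cd274 was found in 15.3% of splenectomy and 15.01% of sham interferon-responding neutrophils, 22.7% and 26.3% unthinned. Cd274 was also found in 0.870% of splenectomy and 6.19% of sham thinned B cells. Fcgr1, the high-affinity IgG receptor, stood at 46.2 CPM in splenectomy and 108 CPM in sham interferon-responding neutrophils, and was the 1 surface gene of 16 that was higher in interferon-responding than in other cells of both libraries.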

How the data were processed

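Heart leukocytes were measured in 2 libraries of the 10x Chromium 3′ v3 kit, 1 per group. The authors deposited raw UMI counts per gene and cell barcode, made with Cell Ranger 5.0.0 per the file headers and with STAR on mm10 per the submitters' processing notes. Which gene annotation was counted is not stated in the material used. The matrices held 32285 features and 5087 splenectomy and 6210 sham barcodes, with 48024013 and 53512625 UMIs, of which 9 barcodes occurred in both. Gene positions came from GENCODE on mm10 and promoters from the RefSeq table on GRCm38.p6.

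Cells with at least 200 genes and at most 20% mitochondrial UMIs were kept, 5005 splenectomy and 6140 sham cells. The members and the gene lists were chosen with earlier results of these data known. Counts were summed over the cells of a group and scaled to CPM. A gene was measured with at least 10 expected UMIs per group and called higher or lower from a 1.5-fold ratio, for interferon-responding against other cells the same way in both libraries. Ratio intervals are exact conditional binomial and share intervals Clopper-Pearson. Where a count in a ratio was 0, 3 counts were put in its place. With 1 library per group no test was made.

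Genes were named by rule: the 15 highest and up to 10 lowest smaller-of-both-libraries ratios between cell groups, and the 10 highest and 10 lowest ratios between libraries, each found in at least 10% of cells of the higher group, without genes of the rule, globins, ribosomal and mitochondrial genes, predicted genes or variable segments of immune receptors, and also members of the lists. B cells, as a background, were kept cells outside the neutrophils with 3 or more UMIs of Cd79a, Cd79b and Ms4a1. Of the interferon genes listed, 3 symbols were not in the features. Ms4a4c and Ms4a6c are on the interferon and the monocyte lists. Ifit3 and Ifit3b, and members of the PYHIN, Schlafen and Trim30 families, are near-identical, so their counts are uncertain. Doublets were kept. As an alternative, the highest Scrublet scores were removed, 200 splenectomy and 302 sham cells. In all, 16 alternative settings were run, 2 of them chosen after seeing the data. The computation was tested on simulated data. The tools were scanpy 1.11.5, pandas 2.3.3, scipy 1.17.1, numpy 2.4.6 and matplotlib 3.10.9 under Python 3.11.15.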

Additional observations from a re-analysis of the deposited data

Results flagged for a closer look

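Cxcl16, a chemokine held on the membrane, lay in opposite directions in both cell groups. Its log2 ratio of splenectomy over sham was 1.03 in interferon-responding neutrophils, at 32.3 CPM in splenectomy and 15.8 CPM in sham cells, and -0.79 in other Retnlg-low neutrophils, at 10.2 CPM in splenectomy and 17.6 CPM in sham cells. It rests on 21 splenectomy and 35 sham UMIs in interferon-responding neutrophils, and 1 cell held 57.1% of those of the splenectomy library. The difference was not tested.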

How the results depend on the processing

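The difference in share kept its direction in each setting that could move it, from -14.8 points with a sum of 2 or more to -8.94 points with cells thinned to 2000 UMIs before the rule. Thinning left 57 genes higher and 38 lower in interferon-responding than in other cells, 27 interferon genes higher, 145 genes higher and 237 lower in splenectomy than in sham interferon-responding neutrophils, and 7 interferon genes lower there. The last count was 11 with doublets removed and 11 at a neutrophil marker share of at least 0.6%. With at least 5 expected UMIs, 53 genes were lower in interferon-responding cells, 511 higher and 796 lower in their splenectomy cells, and 640 higher in the other splenectomy cells. With at least 20, the first comparison gave 83 higher and 4 lower, the second 126 and 186, and the other cells 203 and 448. Genes lower in interferon-responding cells numbered 50 by mean per-cell CPM and 32 against depth-matched cells. Snai1 (0.27) and Mvb12a (0.0596) reversed on thinning, Mmp19 (-0.32) with Retnlg at 0, and the median of all genes between libraries (0.00786) at the 0.6% share. Fewer UMIs or genes enter under thinning and stricter minimums by construction. Thinning before the rule also loosens the Retnlg and C1q limits, which then act on thinned counts. The cause of the other shifts was not tested. The median interferon ratio between libraries lay from -0.19 to -0.01 in interferon-responding neutrophils and from -0.75 to -0.50 in the others, and the granule median from 0.31 to 0.62. No paired analysis was possible because each group holds 1 library, and no replicate could be left out.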
